A study of Mus musculus with 6 samples.

Results

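The subject is the baseline transcriptome of MLE-12, a mouse lung epithelial cell line, after treatment with PBS (phosphate-buffered saline, the arm given the same volume without extract). The 3 RNA-seq libraries whose titles name PBS were taken out of 6 in the series, and the other 3, from cells given cigarette smoke extract, were not used here. The series title concerns lipolysis, CD36 and ZBP1-mediated necrosis in chronic obstructive pulmonary disease. The cells were labelled as wild type in genotype and were grown in DME/F12 medium with 2% serum, ITS supplement and antibiotics. PBS was added at 30% cell density, RNA was taken 24 h later with TRIzol, and polyA RNA was sequenced from a Vazyme TruePrep library. The labels do not say whether the 3 libraries came from separate cultures, so the spread between them may be technical. Their extraction text names lung tissue, whereas every sample is described as the cell line, and markers of the other cells of a lung were therefore counted.

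MLE-12 was derived from a lung tumour of a mouse that carried the SV40 large T antigen under the human surfactant protein C promoter, a promoter active in alveolar type 2 cells. Type 2 cells make surfactant, a film of phospholipid and of proteins encoded by Sftpa1, Sftpb, Sftpc and Sftpd, and they store it in lamellar bodies. Type 1 cells are the thin cells of gas exchange, and type 2 cells can give rise to them. Large T antigen binds the p53 and retinoblastoma proteins. As a single immortalised line, MLE-12 stands for neither type without a check of its genes. In bulk RNA, fewer cells that express a gene and less of its RNA per cell cannot be told apart.

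The libraries held 13647897, 18082404 and 19486697 estimated counts, so 3 counts corresponded to 0.220, 0.166 and 0.154 CPM, the share of all counts on the CPM scale. Levels are given in TPM (a length-corrected share of all transcripts, summed over the transcripts of a gene), as the mean ± SD of the 3 libraries, or as 3 single values in the order of libraries 1, 2 and 3. A gene was called detected at 1 TPM or more in every library, abundant at a mean of 100 TPM or more, and not detected at 3 or fewer counts in every library; such a gene may be present below this depth. By these rules 11360 of 22028 protein-coding genes (51.6%) were detected, 1812 (8.23%) were abundant and 6498 (29.5%) were not detected, with a median of 1.90 TPM over all of them. These 3 percentages are the background for the counts below. Detection covered 59 gene lists with 1174 distinct measured genes, grouped as lineage, secretory, metabolic, receptor and death-pathway genes. Among detected genes with at least 100 counts in every library, the median coefficient of variation (CV, the SD as a percent of the mean) was 9.54% over 9612 genes. Pairs of libraries correlated at 0.987 to 0.992 in log2 CPM across 10000 protein-coding genes, and genes are not independent replicates. No pair was a duplicate, since chi-square per degree of freedom between libraries was 10.1 to 17.2.

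Of the lineage genes, 151 of 354 (42.7%) were detected, fewer than the 51.6% of all protein-coding genes, while 37 (10.5%) were abundant. The type 1 list stood at the top of the lineage lists, with 12 of 14 genes detected, 8 abundant and a median of 133 TPM. Gprc5a, a retinoic acid-induced membrane protein, gave 450.0, 459 and 469 TPM. Aqp5, a water channel, gave 318, 355 and 354 TPM. Both genes differed little between libraries, and Emp2, Aqp5 and Cav1, at 359 ± 18.7, 342 ± 21.1 and 324 ± 10.1 TPM, had overlapping ranges. Ager, which encodes the receptor RAGE and is a classical type 1 marker, gave 171, 192 and 185 TPM, or 183 ± 10.6 TPM, and ranked 876 among protein-coding genes. Its range overlapped with that of Timp3 at 168 ± 25.1 TPM, and Hopx, a homeodomain-only cofactor, followed at 159 ± 7.07 TPM. Pdpn (podoplanin), Clic5 and Rtkn2 were lower, at 38.2 ± 4.32, 24.2 ± 2.65 and 14.4 ± 2.89 TPM. Akap5 and Spock2 fell under the 1 TPM line in all 3 libraries, at 0.670 ± 0.114 and 0.236 ± 0.0266 TPM.

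The type 2 list showed another picture, with 6 of 16 genes detected, none abundant, 5 not detected and a median of 1.11 TPM. The detected genes were led by Lpcat1, an enzyme of surfactant phospholipid remodelling, and Abca3, the lamellar body lipid transporter, at 55.7 ± 6.17 and 34.7 ± 2.48 TPM. Sftpc gave 3.67, 2.98 and 2.61 TPM from 18, 19 and 18 counts. It was thus detected in every library, at a low level. Sftpb gave 0.692, 1.15 and 1.90 TPM, on both sides of the threshold, and Sftpa1 and Sftpd had no count in any library, which allows up to 0.127 and 0.210 TPM in a library. Lamp3, a lamellar body membrane protein, gave 2, 1 and 0 counts, and Slc34a2, the phosphate transporter of type 2 cells, was at 0.137 ± 0.0206 TPM. Etv5 and Dram1 had overlapping ranges at 14.5 ± 3.72 and 14.9 ± 1.95 TPM. The summed level of the type 2 list was 122 to 145 TPM in the 3 libraries, against 2166 to 2320 TPM for the type 1 list.

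**Figure D1:**
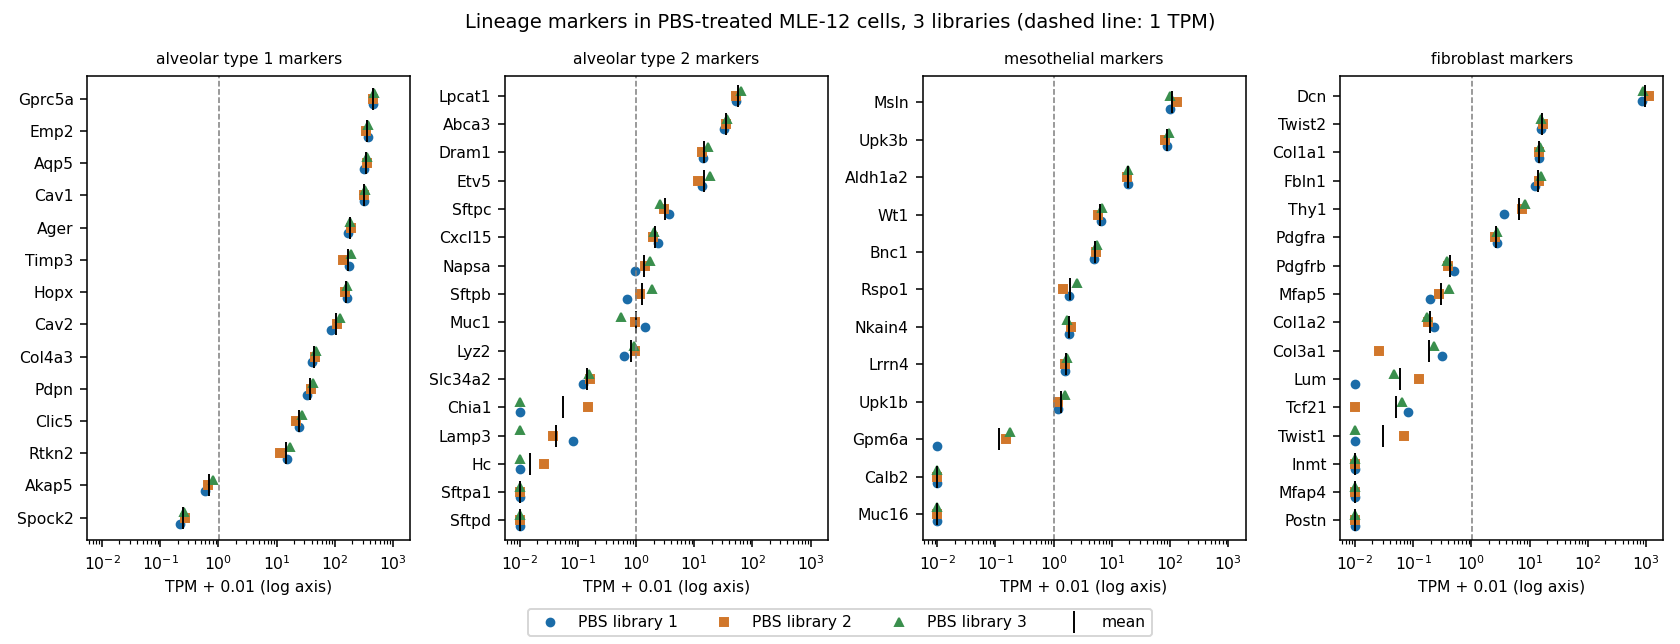
TPM plus 0.01 on a log axis for every measured member of the type 1, type 2, mesothelial and fibroblast lists. Each symbol is a PBS library, the black tick is the mean and the dashed line marks 1 TPM. Nearly all type 1 genes lie right of the line, most surfactant genes lie near or left of it, and Dcn at 954 TPM stands apart from the other fibroblast genes.

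Markers of the other airway and neuroendocrine epithelia were mostly below detection. None of 10 club cell genes was detected and 8 were at 3 counts or fewer, including Scgb1a1, the club cell secretoglobin, with 1, 0 and 2 counts. None of 10 goblet genes was detected, and Muc5b, a gel-forming mucin, was the highest at 1.12 ± 0.187 TPM, with 1 library under the line. Of 14 ciliated genes only Tppp3 was detected, at 3.95 ± 0.800 TPM, and Foxj1, the regulator of motile cilia, was at 0.315 ± 0.0955 TPM. Of 8 basal genes only Aqp3 was detected, at 1.93 ± 0.567 TPM, while Krt5 had no count and Trp63 was at 0.586 ± 0.235 TPM. Of 10 neuroendocrine genes only Uchl1, a ubiquitin hydrolase, was detected, and it was abundant, at 214, 209 and 191 TPM. The neuroendocrine genes Insm1, Chgb and Resp18 had no count. Among 7 ionocyte and tuft genes 2 were detected, Dclk1 at 61.3 ± 4.85 TPM and Pou2f3 at 1.88 ± 0.317 TPM.

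Mesothelial genes were detected for 9 of 12 members, with a median of 1.86 TPM. Msln (mesothelin, a cell surface protein of the pleural lining and of some tumours) gave 98.2, 129.8 and 100.2 TPM, and library 2 was the highest. Upk3b (uroplakin 3b) was at 88.8 ± 5.54 TPM, below every Msln value, and Aldh1a2, a retinoic acid synthesis enzyme, at 18.8 ± 0.291 TPM. Wt1, the Wilms tumour transcription factor, was at 6.34 ± 0.499 TPM and Bnc1 at 5.22 ± 0.317 TPM. Calb2 and Muc16 had no count in any library. Of the 16 fibroblast genes, 6 were detected and 7 were not. Dcn, the collagen-binding proteoglycan decorin, gave 850.5, 1108 and 903 TPM, rank 107 of all protein-coding genes, with library 2 again the highest. The fibrillar collagens did not share this level, since Col1a1 was at 14.7 ± 0.446 TPM, and Col1a2 and Col3a1 at 0.186 ± 0.0324 and 0.179 ± 0.148 TPM. Lum, Postn, Mfap4 and Inmt were not detected. The fibroblast list summed to 900.3 to 1166 TPM, nearly all of it Dcn.

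Among other tissues, 7 of 14 cardiac and striated muscle genes were detected (50%, beside 51.6% of all protein-coding genes), at low levels. The median of this list was 1.18 TPM, beside 1.90 TPM over all protein-coding genes. Myl7, an atrial myosin light chain, gave 26.0, 22.7 and 20.9 TPM. Ryr2, the cardiac calcium release channel, was at 15.9 ± 1.06 TPM and Nppb, a natriuretic peptide gene, at 11.8 ± 1.68 TPM. All 3 libraries placed these genes well over the 1 TPM line, while Myh6 and Nppa had at most 3 counts in each. Of 14 endothelial genes 5 were detected, led by Tek and Flt1 at 6.80 ± 0.805 and 4.23 ± 0.455 TPM, and Cdh5, Cldn5 and Sox17 had no count. Of 10 smooth muscle and pericyte genes 2 were detected, with Tagln at 17.0 ± 3.87 TPM and Acta2 at 0.441 ± 0.365 TPM. Only Cd68 and Csf1r of 16 leukocyte genes were detected, at 3.16 ± 1.62 and 1.76 ± 0.256 TPM, and Ptprc (CD45) was at 0.137 ± 0.0430 TPM. The leukocyte list summed to 5.76 to 9.44 TPM and the endothelial list to 16.8 to 21.7 TPM per library. Liver and gut genes were represented by Afp alone, at 1.79 ± 0.908 TPM, out of 12. The Y-linked members of the lists were low, with Kdm5d at 0.846 ± 0.410 TPM and Ddx3y at 0.139 ± 0.152 TPM. The imprinted genes Igf2r and Cdkn1c were at 46.0 ± 17.6 and 44.5 ± 1.76 TPM.

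Epithelial intermediate filaments are built from pairs of a type I keratin (Krt18, Krt19) and a type II keratin (Krt7, Krt8), and vimentin is the filament protein usual in mesenchymal cells. Krt19 gave 1053, 958 and 1004 TPM, or 1005 ± 47.2 TPM, at rank 100 among protein-coding genes. Krt8 gave 218, 195 and 204 TPM. Krt18, the usual partner of Krt8 and its neighbour on chromosome 15, gave 0.0914, 0.427 and 0.550 TPM from 1, 6 and 8 counts. The Krt18 and Krt19 values are far apart in every library, and no value was assigned to the annotated Krt18 pseudogenes Gm5200 and Gm17847, which were listed at 0. Krt7 was at 1.46 ± 0.236 TPM, and Vim at 1776 ± 144 TPM was above Krt19 in all 3 libraries. Krt20 and Krt23 were not detected.

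The promoters of the 2 neighbours, with that of Ager, are shown because the levels of the genes are far apart. In RefSeq promoter windows of 300 bases (250 before and 50 after the start, GRCm38.p6), matched for 15478 of 22028 protein-coding genes (70.3%), the dinucleotide CG, which reads the same on both strands, occurred at a median of 22 sites in detected genes under 100 TPM, 23 in abundant genes and 3 in genes that were not detected, with 15 over all windows. Genes between these classes, to which Krt18 with its 1, 6 and 8 counts belongs, had a median of 7 sites with quartiles of 2 and 17. The Krt8 window held 6 sites, the Krt18 window 17 and the Ager window 4. Krt18 thus lies at the upper quartile of its class and under the median of detected genes, and it has more CG sites than Krt8 or Ager. The motif TATAAA was read on the gene's strand from 50 bases before to 10 bases before the RefSeq start. It was in 3.22% of all windows, in 7.45% of those of genes not detected, and in none of these 3. The RefSeq starts lie 140, 36 and 12 bases from the annotated starts of Krt8, Krt18 and Ager. The 3 windows are thus not placed alike relative to the annotated starts. Only bases ahead of the first annotated exon are printed, 5′ to 3′ on the gene's strand, with CG in capitals: Krt8 from chr15:102004483-102004592 (minus strand), Krt18 from chr15:102027966-102028179 (plus strand) and Ager from chr17:34597600-34597849 (plus strand).
Krt8: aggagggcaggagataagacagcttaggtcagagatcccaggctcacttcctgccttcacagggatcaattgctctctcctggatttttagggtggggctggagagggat
Krt18: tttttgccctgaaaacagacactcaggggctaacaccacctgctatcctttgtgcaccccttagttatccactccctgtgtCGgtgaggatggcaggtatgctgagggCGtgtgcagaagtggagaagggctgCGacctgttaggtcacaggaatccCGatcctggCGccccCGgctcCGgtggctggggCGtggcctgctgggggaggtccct
Ager: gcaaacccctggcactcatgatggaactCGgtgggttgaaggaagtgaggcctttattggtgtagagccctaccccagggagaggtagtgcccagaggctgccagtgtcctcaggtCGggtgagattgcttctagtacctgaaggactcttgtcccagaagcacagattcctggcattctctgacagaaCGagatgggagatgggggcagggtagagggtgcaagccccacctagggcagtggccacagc
The printed Krt8 stretch of 110 bases holds no CG, the Krt18 stretch of 214 bases holds 8, and the Ager stretch of 250 bases holds 3. A count of letters in a window says nothing on methylation or on factors bound there.

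Junction genes were detected for 22 of 35 members, and the levels split by type. The catenins Ctnnb1 and Ctnna1, which link cadherins to actin, were at 774 ± 36.5 and 292 ± 27.4 TPM, and F11r (junctional adhesion molecule A) and Jup (plakoglobin) at 189 ± 13.4 and 142 ± 16.7 TPM. The cadherins themselves were far lower. Cdh1 (E-cadherin) gave 6.28, 5.16 and 6.68 TPM and Cdh2 (N-cadherin) gave 33.2, 29.6 and 44.1 TPM. Every Cdh2 value was above every Cdh1 value, and Cdh1 was 0.171 times Cdh2 on the geometric mean of the 3 libraries. Epcam was at 2.36 ± 0.342 TPM. Among claudins, Cldn12 and Cldn3 were at 20.6 ± 0.745 and 19.3 ± 0.700 TPM, while Cldn18, the claudin of alveolar cells, and Cldn4 and Cldn7 were not detected. Of 7 regulators of epithelial-mesenchymal transition 5 were detected, Twist2, Zeb1, Zeb2 and Snai1 at 16.1 ± 0.750, 12.7 ± 2.14, 11.3 ± 2.23 and 8.07 ± 1.41 TPM. The epithelial splicing factors Esrp1 and Esrp2 were at 1.000 ± 0.0319 and 3.35 ± 0.143 TPM.

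Among 36 lung transcription factors 21 were detected and 7 were abundant. Gata6, a regulator of alveolar differentiation, gave 252, 276 and 261 TPM, the highest of the list. Nkx2-1, which defines lung epithelium, gave 115.4, 119 and 129.9 TPM. Its range overlapped with those of Foxa2 and Sox4, at 127 ± 13.7 and 123 ± 7.69 TPM. Foxp1, Myc and Cebpb were at 164 ± 15.1, 137 ± 3.04 and 114.6 ± 6.07 TPM. Foxa1 was at 15.8 ± 0.470 TPM, and Cebpa, a factor of type 2 maturation, at 0.850 ± 0.361 TPM. The airway factor Sox2 had no count, and Grhl2, Ehf, Elf3 and Elf5 were each at a mean of 0.595 TPM or less. Of 39 Hox genes, which record position along the body axis, 11 were detected, led by Hoxa10, Hoxb13, Hoxb4 and Hoxb3 at 15.3 ± 1.84, 9.43 ± 0.581, 8.54 ± 1.66 and 8.06 ± 1.06 TPM. Hoxa5, the member best known in lung, was at 6.16 ± 0.416 TPM, and 17 Hox genes were not detected.

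Basement membrane and integrin genes were detected for 26 of 33 members, 11 of them abundant. Type IV collagen was led by Col4a5 and Col4a1 at 495 ± 34.3 and 441 ± 57.0 TPM, with Col4a4 and Col4a3, the alveolar chains, at 99.3 ± 10.5 and 44.6 ± 4.22 TPM. Laminin chains Lamc1, Lama5 and Lamb2 were at 363 ± 41.0, 252 ± 2.53 and 133 ± 19.7 TPM, the chains of a laminin with α5. Lama3 and Lamb3, chains of an epithelial laminin, were at 0.136 ± 0.0452 and 2.59 ± 0.757 TPM. Among integrins Itgb1, Itga3 and Itgb5 were at 396 ± 44.3, 134 ± 10.2 and 134 ± 3.39 TPM, and Itgb6, which activates latent TGF-β in injured epithelium, at 1.99 ± 0.973 TPM. Fn1 (fibronectin) was at 115.5 ± 4.86 TPM.

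**Figure D2:**
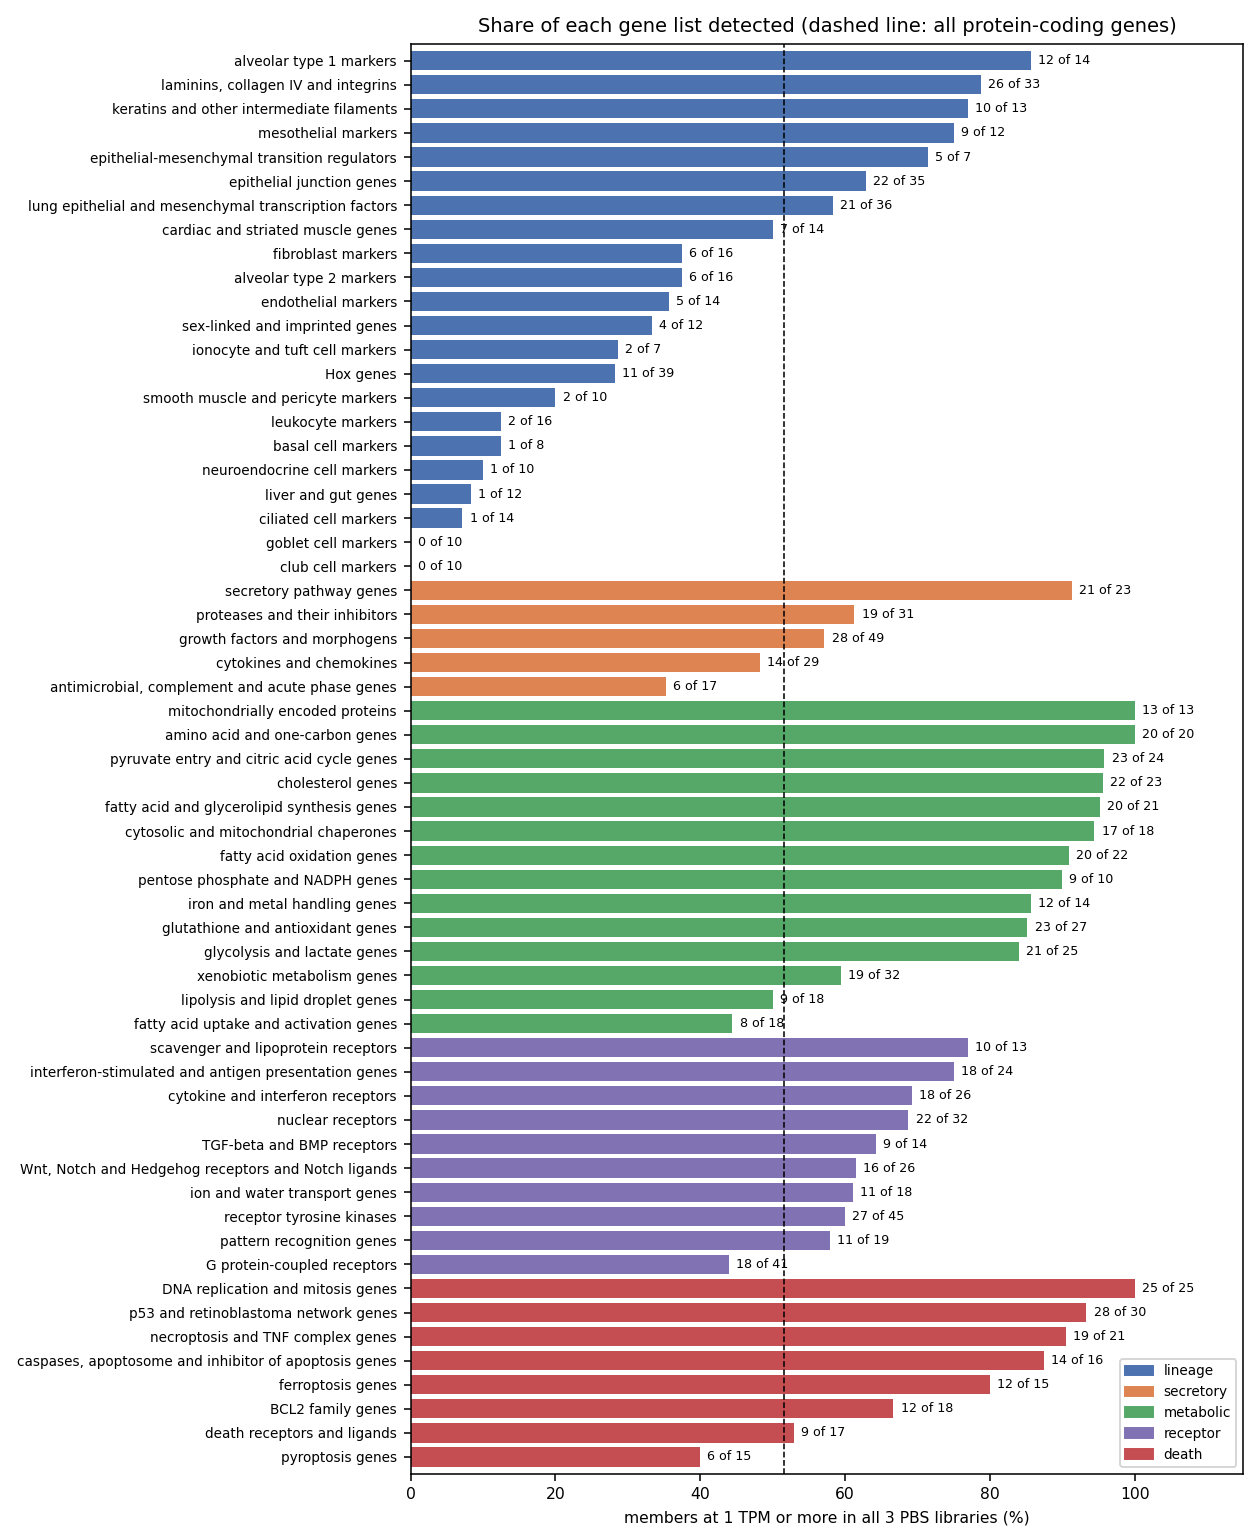
Share of the measured members of each of the 59 lists at 1 TPM or more in all 3 PBS libraries, coloured by category, with the counts at the bar ends and the 51.6% of all protein-coding genes as a dashed line. Metabolic and death-pathway lists lie mostly right of the line, and lists of other cell types mostly left of it.

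Secretory genes were detected for 88 of 149 members (59.1%), 33 of them abundant. The machinery of secretion was near complete, with 21 of 23 detected and a median of 132 TPM: the folding enzyme P4hb and the chaperones Calr, Hsp90b1 and Hspa5 were at 938 ± 95.1, 759 ± 88.8, 623 ± 85.4 and 527 ± 46.6 TPM. Rab27a was at 3.49 ± 1.01 TPM and Bhlha15 (Mist1, of professional secretory cells) at 0.116 ± 0.0700 TPM. Of 17 antimicrobial, complement and acute phase genes 6 were detected. Clu (clusterin, an extracellular chaperone) gave 1863, 1918 and 1912 TPM, and Saa3, Lcn2 and C3 followed at 26.8 ± 4.41, 13.9 ± 3.12 and 5.99 ± 1.01 TPM. Clu alone made nearly all of the list's summed 1922 to 1973 TPM. Bpifa1, Lyz1, Wfdc2 and Camp had no count.

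Of 29 cytokine and chemokine genes 14 were detected (48.3%, against 51.6% of all genes). Mif, Ccl2 and Csf1 were abundant, at 639 ± 64.6, 282 ± 41.4 and 282 ± 15.4 TPM. Ccl2, which recruits monocytes, gave 302, 311 and 235 TPM, with library 3 the lowest. Cxcl1, a neutrophil chemokine, and Cxcl10, an interferon-induced chemokine, were at 62.4 ± 9.32 and 51.3 ± 6.05 TPM. Il18 was at 23.5 ± 4.57 TPM and Il6 at 4.74 ± 0.378 TPM, whereas Il1b, Ifnb1, Ifnl2 and Ifnl3 had no count and Tnf had 1, 0 and 3 counts. Growth factors and morphogens were detected for 28 of 49 members. The matricellular genes Ccn1 (listed as Cyr61) and Ccn2 (listed as Ctgf), targets of the YAP pathway, were at 1120.0 ± 244 and 378 ± 69.3 TPM. Pdgfa, Tgfb2, Inhba and Wnt7a were at 498 ± 7.93, 229 ± 13.9, 135 ± 20.2 and 131 ± 7.45 TPM. Bmp4, Fgf18 and Nrg1 were at 78.6 ± 11.4, 73.3 ± 6.93 and 43.9 ± 2.99 TPM, and Fgf10, Wnt5a and Hgf, ligands that mesenchyme usually supplies, at 0.0438 ± 0.0432, 0.0222 ± 0.0134 and 0.363 ± 0.123 TPM.

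Vegfa, an endothelial growth factor of the alveolus, was at 112 ± 6.03 TPM, with 64.6% ± 1.82 of it assigned to a transcript without the coding exon of 132 bases that 25.9% ± 2.03 of it carried. Among 31 proteases and inhibitors 19 were detected, with Timp2, Cst3, Ctsd and Ctsb at 482 ± 47.5, 379 ± 30.9, 298 ± 28.2 and 273 ± 9.73 TPM. Ctsh, a cathepsin that processes surfactant proteins in type 2 cells, was at 164 ± 10.7 TPM. Plat (tissue plasminogen activator) was at 222 ± 17.4 TPM and Mmp11 at 104 ± 5.81 TPM. Mmp7, Mmp9, Mmp10 and Serpinb5 were not detected, and Mmp12, the macrophage elastase, was at 0.631 ± 0.170 TPM.

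Metabolic genes were the category detected most often, 236 of 285 (82.8%), and 112 (39.3%) were abundant against 8.23% of all genes. Glycolysis was covered by 21 of 25 genes. Gapdh gave 3768, 3687 and 3673 TPM, and Pkm, Ldha and Eno1 followed at 1875 ± 86.3, 1121 ± 30.99 and 662 ± 20.5 TPM. Of the 31-base words of Gapdh, Eno1 and Ldha, 74.4%, 77.2% and 39.2% occur in transcripts of other genes, so not all of their reads can be assigned to 1 gene. The lactate dehydrogenase chains were far apart, since Ldhb gave 2.21, 1.52 and 0.653 TPM from 18.8, 19 and 6 counts and the ratio of Ldha to Ldhb ran from 498 to 1691 over the libraries. Slc2a1 (GLUT1) was at 33.8 ± 5.54 TPM and Slc2a3 (GLUT3) at 0.0957 ± 0.0438 TPM. Hexokinases Hk1 and Hk2 were at 30.8 ± 3.15 and 14.5 ± 4.37 TPM and Hk3 had no count. Phosphofructokinase was spread over Pfkm, Pfkp and Pfkl at 39.5 ± 1.63, 26.3 ± 0.504 and 20.02 ± 1.4001 TPM, and these ranges did not overlap.

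Pyruvate kinase is made in 2 forms from Pkm by the choice between mutually exclusive exons, the form with the downstream exon (M2) being usual in dividing cells and the form with the upstream exon (M1) in muscle and brain. The transcript with the downstream exon, Pkm-201, gave 1639, 1774 and 1659.7 TPM and that with the upstream exon, Pkm-202, gave 133, 159 and 154. They held 90.2% ± 0.759 and 7.92% ± 0.465 of the gene's TPM. The exons are printed because the choice between them makes the 2 forms: both have 167 bases, and 103 of 167 positions (61.7%) are identical. On the plus strand of GRCm38 they lie at chr9:59675568-59675734 (Pkm-201, exon 9) and chr9:59675029-59675195 (Pkm-202, exon 9), and capitals mark the 64 positions at which they differ.
Pkm-201 exon 9: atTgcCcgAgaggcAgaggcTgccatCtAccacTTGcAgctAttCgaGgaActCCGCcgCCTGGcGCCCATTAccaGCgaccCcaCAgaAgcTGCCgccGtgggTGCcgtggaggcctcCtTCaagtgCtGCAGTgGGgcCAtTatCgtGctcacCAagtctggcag
Pkm-202 exon 9: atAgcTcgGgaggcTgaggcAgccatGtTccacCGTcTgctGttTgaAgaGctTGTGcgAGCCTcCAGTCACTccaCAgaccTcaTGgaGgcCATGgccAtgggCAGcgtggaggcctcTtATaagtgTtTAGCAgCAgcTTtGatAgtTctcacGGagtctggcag
The values are kallisto's estimates, which divide reads of the common exons by a model.

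The citric acid cycle list was detected for 23 of 24 genes, led by Mdh2, Idh2, Sdhd and Cs at 858 ± 40.2, 551 ± 24.1, 368 ± 24.0 and 261 ± 21.2 TPM, and Pck1, of gluconeogenesis, had no count. The pentose phosphate list was detected for 9 of 10, led by Taldo1, Tkt, Pgls and Pgd at 401 ± 20.7, 278 ± 5.53, 247 ± 4.05 and 185 ± 12.9 TPM. All 13 mitochondrially encoded proteins were detected and summed to 5.06%, 5.63% and 5.16% of TPM. Their levels were mt-Co2 at 12938 ± 644 TPM, mt-Nd1 at 9106 ± 1437 TPM and mt-Co3 at 7394 ± 1270.3 TPM. mt-Co1 gave 4540.4, 7972 and 4469.7 TPM. Of the 31-base words of mt-Co2, mt-Co3 and mt-Co1, 100%, 99.9% and 63.9% occur in transcripts of other genes, and none of those of mt-Nd1 does. The nuclear pseudogenes Gm28437, Gm29216 and Gm28661 were listed at 7941, 7662 and 5058 TPM, and 97.2% to 100% of their words occur in transcripts of other genes, so such reads cannot be assigned to 1 gene. All 20 amino acid and one-carbon genes were detected, with the serine synthesis enzymes Psat1 and Phgdh at 395 ± 12.5 and 241 ± 12.5 TPM, Slc3a2 at 360.3 ± 10.7 TPM and Asns at 278 ± 13.8 TPM.

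Lipid synthesis was broadly expressed. The fatty acid and glycerolipid list was detected for 20 of 21 genes, and Scd2, a desaturase, gave 553, 460.0 and 630.2 TPM. Fasn (fatty acid synthase) gave 383, 465 and 461 TPM. Fads1 and Elovl1 followed at 166 ± 7.71 and 153 ± 14.9 TPM. Scd2 exceeded Scd1, at 63.4 ± 10.9 TPM, 8.43 to 8.83 times over the libraries. The cholesterol list was detected for 22 of 23 genes, with Fdps, Msmo1, Idi1 and Cyp51 at 311 ± 18.1, 299 ± 4.47, 245 ± 25.8 and 231 ± 22.4 TPM, while the sterol exporters Abca1 and Abcg1 were lowest at 1.93 ± 0.156 and 0.557 ± 0.259 TPM. Pcyt1a and Chpt1, of phosphatidylcholine synthesis, were at 43.4 ± 3.86 and 92.4 ± 9.76 TPM.

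Lipolysis releases fatty acids from lipid droplets in steps run by Pnpla2 (adipose triglyceride lipase), Lipe (hormone-sensitive lipase) and Mgll (monoglyceride lipase), with Abhd5 as co-activator and G0s2 as inhibitor of Pnpla2. Pnpla2 gave 109, 111 and 102 TPM. Lipe gave 8.52, 15.9 and 13.5 TPM, lowest in library 1. Mgll and Abhd5 were at 15.5 ± 2.04 and 20.8 ± 1.11 TPM, and all 3 lipases were detected in every library with Pnpla2 above the others. G0s2 had no count, which allows up to 0.510 TPM. Droplet coat genes were Plin3 and Plin2, at 29.4 ± 0.835 and 27.9 ± 1.91 TPM with overlapping ranges, while Plin1, Plin4 and Plin5 were each at a mean of 0.261 TPM or less. Hilpda was at 33.7 ± 4.16 TPM and Lipa, the lysosomal lipase, at 36.4 ± 7.03 TPM. In all 9 of 18 genes of this list were detected (50%, beside 51.6% of all genes).

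Genes of fatty acid uptake were detected for 8 of 18 members, and those present were acyl-CoA synthetases and transport proteins. Cd36, the fatty acid translocase named in the series title, gave 0.0951, 0.145 and 0.0714 TPM from 2, 4 and 2 counts, so it lay near the counting limit. Acsl5, Acsl3 and Acsl1 were at 71.8 ± 7.72, 41.7 ± 5.02 and 21.8 ± 1.85 TPM, and Slc27a4 and Slc27a1 at 14.7 ± 0.499 and 11.4 ± 0.905 TPM. Fabp3 and Fabp5 were at 0.817 ± 0.0802 and 0.148 ± 0.0963 TPM, and Fabp1, Fabp2, Fabp4, Slc27a2 and Slc27a6 had no count. β-Oxidation genes were detected for 20 of 22, with Etfb, Acaa2, Etfa and Acadl at 193 ± 4.29, 180.5 ± 6.96, 171 ± 3.85 and 135 ± 23.1 TPM. Cpt1a, the gate of mitochondrial import, was at 24.3 ± 1.88 TPM, and Ppargc1a at 2.96 ± 0.491 TPM.

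**Figure D3:**
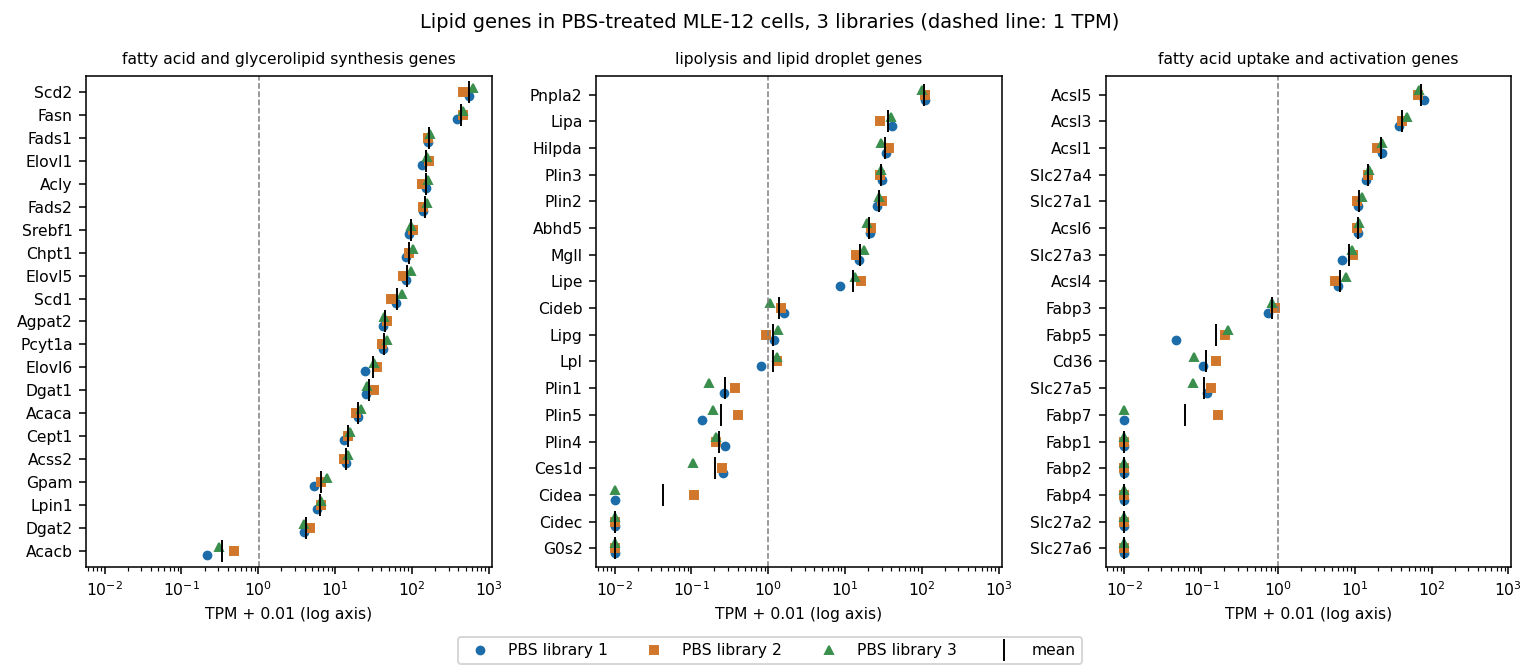
TPM plus 0.01 on a log axis for the lists of fatty acid and glycerolipid synthesis, lipolysis and lipid droplets, and fatty acid uptake and activation, with a symbol per PBS library, a black tick for the mean and a dashed line at 1 TPM. All synthesis genes but Acacb lie right of the line, Pnpla2 leads the lipolysis list at 107 TPM, and Cd36 lies at 0.104 TPM among the lowest uptake genes with counts.

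Antioxidant genes were detected for 23 of 27 members and 15 were abundant, with a median of 116 TPM. Prdx1 gave 3635, 3355 and 3183 TPM. Gclm, which encodes the modifier subunit of glutamate-cysteine ligase, gave 568, 481 and 519.6 TPM, and its catalytic partner Gclc was at 169.7 ± 3.61 TPM. Library 1 was the highest for both Prdx1 and Gclm, and the detected list as a whole deviated by 0.09, -0.03 and -0.06 log2 CPM in libraries 1 to 3. Sod1, Nfe2l2 (NRF2) and Txnrd1 were at 1380.3 ± 114, 477 ± 15.1 and 459 ± 43.5 TPM. Hmox1 and Nqo1, targets of NRF2, were at 103 ± 5.71 and 54.3 ± 8.60 TPM, and Slc7a11, the cystine importer, at 5.24 ± 0.631 TPM. Xenobiotic genes were detected for 19 of 32, with Gstm1, Mgst1, Aldh1a1 and Cyp1b1 at 618 ± 14.7, 528 ± 57.5, 133 ± 4.74 and 105 ± 16.7 TPM. The aryl hydrocarbon receptor Ahr was at 3.38 ± 0.923 TPM, and its target Cyp1a1 gave 1, 2 and 2 counts. Cyp2f2, a club cell enzyme, had no count.

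Ferritin was among the most abundant messages, Ftl1 at 10232 ± 186 TPM and Fth1 at 3929 ± 481 TPM, although 80.6% of the Ftl1 words occur in other transcripts. Metallothioneins Mt1 and Mt2 were at 397 ± 38.5 and 132 ± 10.5 TPM, Tfrc at 34.5 ± 1.63 TPM, and Hamp was not detected. Of 18 chaperones 17 were detected. Hsp90ab1, the constitutive cytosolic HSP90, gave 3695, 3096 and 3737 TPM, and Hsp90aa1, the inducible form, was at 646 ± 144 TPM. The ratio of the 2 ran from 3.85 to 7.04, and 70.8% of the Hsp90aa1 words were shared with other genes. Hspa8 was at 2622 ± 68.6 TPM, while the heat-inducible Hspa1a and Hspa1b were at 1.06 ± 0.329 and 14.9 ± 1.88 TPM.

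Receptor genes were detected for 160 of 258 members (62.0%), but only 15 (5.81%) were abundant, under the 8.23% of all genes. The category took in interferon-stimulated and antigen presentation genes, with 5 of 24 abundant, and ion and water transport genes, with 4 of 18 abundant. In each of its other lists at most 2 were abundant. Among 45 receptor tyrosine kinases 27 were detected. Ryk and Epha4, a Wnt and an ephrin receptor, led at 123 ± 14.3 and 123 ± 14.7 TPM with overlapping ranges, before Ddr1 and Igf1r at 65.3 ± 2.10 and 49.2 ± 4.38 TPM. Egfr gave 0.418, 0.430 and 0.565 TPM from 29.4, 51.4 and 52.5 counts. It was under 1 TPM in every library, whereas Erbb2 and Erbb3 were at 24.0 ± 1.93 and 6.68 ± 1.02 TPM and the EGFR ligands Hbegf, Areg and Tgfa at 51.1 ± 6.47, 14.2 ± 1.86 and 11.97 ± 1.21 TPM. Met, the receptor of Hgf, was at 2.43 ± 0.428 TPM. Fgfr3 was at 34.2 ± 3.80 TPM and Fgfr2 at 10.3 ± 1.84 TPM, although 44.4% ± 7.51 of the Fgfr2 value was assigned to a transcript with a retained intron. Fgfr1 was at 0.818 ± 0.0632 TPM and Fgfr4 was not detected.

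TGF-β and BMP receptors were detected for 9 of 14 members, Tgfbr2 and Bmpr1a at 91.7 ± 11.8 and 52.0 ± 5.93 TPM, with Tgfbr1 at 4.77 ± 0.803 TPM. Of 26 Wnt, Notch and Hedgehog receptors and ligands 16 were detected, Smo, Fzd2 and Lrp6 at 87.7 ± 5.99, 84.4 ± 5.56 and 32.4 ± 5.40 TPM, with Notch1 and Notch2 at 5.72 ± 1.04 and 1.54 ± 0.384 TPM. Cytokine and interferon receptors were detected for 18 of 26. Ifnar2 and Il17rc were abundant, at 120.5 ± 10.7 and 117 ± 11.7 TPM, and Ifnar1 and both interferon-γ receptor chains Ifngr1 and Ifngr2 were at 59.9 ± 6.88, 27.2 ± 2.84 and 71.4 ± 14.0 TPM. Il4ra and Il13ra1 were at 0.939 ± 0.464 and 0.0989 ± 0.0593 TPM, and Il22ra1 had no count. Interferon-stimulated and antigen presentation genes were detected for 18 of 24, with H2-K1, B2m and H2-D1 at 2114 ± 97.3, 1689 ± 209 and 1593 ± 40.9 TPM, Irf1 at 87.8 ± 10.9 TPM, Isg15 at 8.54 ± 0.232 TPM and Mx1 at 0.515 ± 0.0707 TPM.

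Pattern recognition genes were detected for 11 of 19 members. Aim2, a sensor of cytosolic DNA, and the adaptor Myd88 led at 40.2 ± 2.18 and 38.8 ± 0.493 TPM. Mavs and Ddx58 (RIG-I) were at 31.7 ± 3.81 and 28.7 ± 3.49 TPM, Cgas at 10.8 ± 2.16 TPM and its adaptor Sting1 (annotated as Tmem173) at 0.911 ± 0.280 TPM. Tlr2, Tlr7 and Tlr3 were at 20.7 ± 1.98, 15.1 ± 2.10 and 10.6 ± 1.17 TPM and Tlr4 at 1.11 ± 0.393 TPM. Nuclear receptors were detected for 22 of 32, Nr2f6, Nr1h2, Thra and Pparg at 138 ± 1.33, 98.1 ± 7.38, 76.5 ± 4.78 and 68.4 ± 6.08 TPM, with the glucocorticoid receptor Nr3c1 at 35.9 ± 5.81 TPM and Ppara at 0.189 ± 0.0491 TPM. G protein-coupled receptors were detected for 18 of 41, none abundant, led by the thrombin receptor F2r at 75.5 ± 11.99 TPM. Adora1, an adenosine receptor, was at 25.7 ± 2.09 TPM. Scavenger and lipoprotein receptors were detected for 10 of 13, with Scarb1, Lrp1 and Lrp2 at 129 ± 6.69, 86.3 ± 13.9 and 54.8 ± 5.56 TPM, and Olr1 at 1.91 ± 0.197 TPM.

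Fluid transport in alveoli runs through the sodium channel ENaC (Scnn1a, Scnn1b, Scnn1g) and the sodium-potassium pump. Of 18 transport genes 11 were detected. Scnn1a was at 24.4 ± 1.42 TPM, while Scnn1b had no count and Scnn1g gave 1, 0 and 1 counts. The β subunit genes Atp1b3 and Atp1b1 of the pump were at 202 ± 5.29 and 90.0 ± 7.16 TPM. Cftr, the chloride channel, was at 0.150 ± 0.0415 TPM, and Slc12a2 at 52.98 ± 7.97 TPM.

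Death-pathway genes were detected for 124 of 155 members (80.0%), and 39 (25.2%) were abundant. The category took in 25 replication and mitosis genes, 20 of them abundant, and 30 p53 and retinoblastoma network genes, 6 of them abundant. Each of its other lists held at most 4 abundant members. Necroptosis is lytic death in which RIPK3 phosphorylates MLKL, and ZBP1 is a nucleic acid sensor that can engage RIPK3, whereas caspase 8 restrains it. Of the 21 genes of this list 19 were detected. Mlkl gave 30.0, 35.1 and 30.9 TPM. Ripk3 gave 1.94, 0.665 and 1.44 TPM from 13, 13 and 18 counts, and library 2 was under 1 TPM. Zbp1 gave 0.0359, 0.190 and 0.258 TPM from 1, 7 and 5 counts. Mlkl was thus well above the detection line in every library, its kinase Ripk3 lay on both sides of it and Zbp1 lay below it. The ratio of Mlkl to Ripk3 ran from 15.4 to 52.7 over the libraries. It rests on few Ripk3 counts, and the same 13 counts gave 1.94 TPM in library 1 and 0.665 TPM in library 2. Casp8, Ripk1 and Fadd were at 56.5 ± 5.54, 27.3 ± 2.93 and 4.67 ± 0.658 TPM, and Cflar at 10.2 ± 1.60 TPM. Rbck1, of the linear ubiquitin ligase, was the only abundant member, at 113 ± 12.5 TPM, and its partners Sharpin and Rnf31 were at 47.5 ± 3.01 and 20.3 ± 1.83 TPM. Adar, which edits double-stranded RNA, was at 11.6 ± 1.89 TPM.

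Transcripts within these genes differed. Mlkl-202 held 73.0% ± 6.34 of the Mlkl TPM and Mlkl-201, whose coding sequence is 24 bases longer, held 25.4% ± 5.06. For Zbp1, 0.111 TPM on average was assigned to a transcript with a retained intron. The shorter coding transcript Zbp1-202 was listed at 0, 0 and 0.151 TPM, and the full-length coding transcript Zbp1-201 at 0 in all libraries. This split rests on the few Zbp1 counts given above.

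Death receptors were detected for 9 of 17 members. The TNF receptor Tnfrsf1a gave 309, 332 and 307 TPM, and Tnfrsf12a (the TWEAK receptor) overlapped with it at 314 ± 5.61 TPM. Fas and Tnfrsf10b, the TRAIL receptor, were at 32.7 ± 3.87 and 14.5 ± 2.57 TPM. The ligands Tnf, Lta and Fasl were not detected and Tnfsf10 was at 0.221 ± 0.155 TPM. Of 18 BCL2 family genes 12 were detected. Bok and Mcl1, at 109 ± 7.55 and 104 ± 9.55 TPM, overlapped, and the effectors Bax and Bak1 were at 91.3 ± 7.51 and 63.8 ± 4.79 TPM. Of the protective members Bcl2l1 was at 37.5 ± 1.401 TPM and Bcl2 at 5.83 ± 1.18 TPM, so Mcl1 exceeded Bcl2 by 13.2 to 22.6 times. Pmaip1 (NOXA) was at 0.149 ± 0.0871 TPM and Bbc3 (PUMA) at 17.9 ± 2.03 TPM. Caspases, apoptosome and inhibitor genes were detected for 14 of 16, with Birc5 (survivin) and Htra2 at 292 ± 17.4 and 133 ± 8.18 TPM.

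Pyroptosis genes were detected for 6 of 15 members, a smaller share than in the other death lists. Ninj1, which ruptures the membrane of dying cells, was at 278 ± 17.6 TPM. The pore protein Gsdmd gave 44.6, 52.1 and 45.0 TPM, and Casp4 (caspase 11 in mouse), which cleaves it, was at 41.7 ± 10.7 TPM. Casp1, the adaptor Pycard and Nlrp3 were at 0.255 ± 0.239, 0.541 ± 0.145 and 0.0734 ± 0.108 TPM. All 3 were below the detection line, as was Il1b with no count, whereas Aim2 and Il18 were detected. Ferroptosis genes were detected for 12 of 15, Gpx4 at 446 ± 21.3 TPM with 85.0% of its words shared with other genes, Lpcat3 at 127 ± 5.92 TPM and Aifm2 (FSP1) at 15.5 ± 1.404 TPM. Acsl4, which supplies the lipids that peroxidise, was at 6.37 ± 1.13 TPM, below Acsl1 in every library, and Alox5 had no count.

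**Figure D4:**
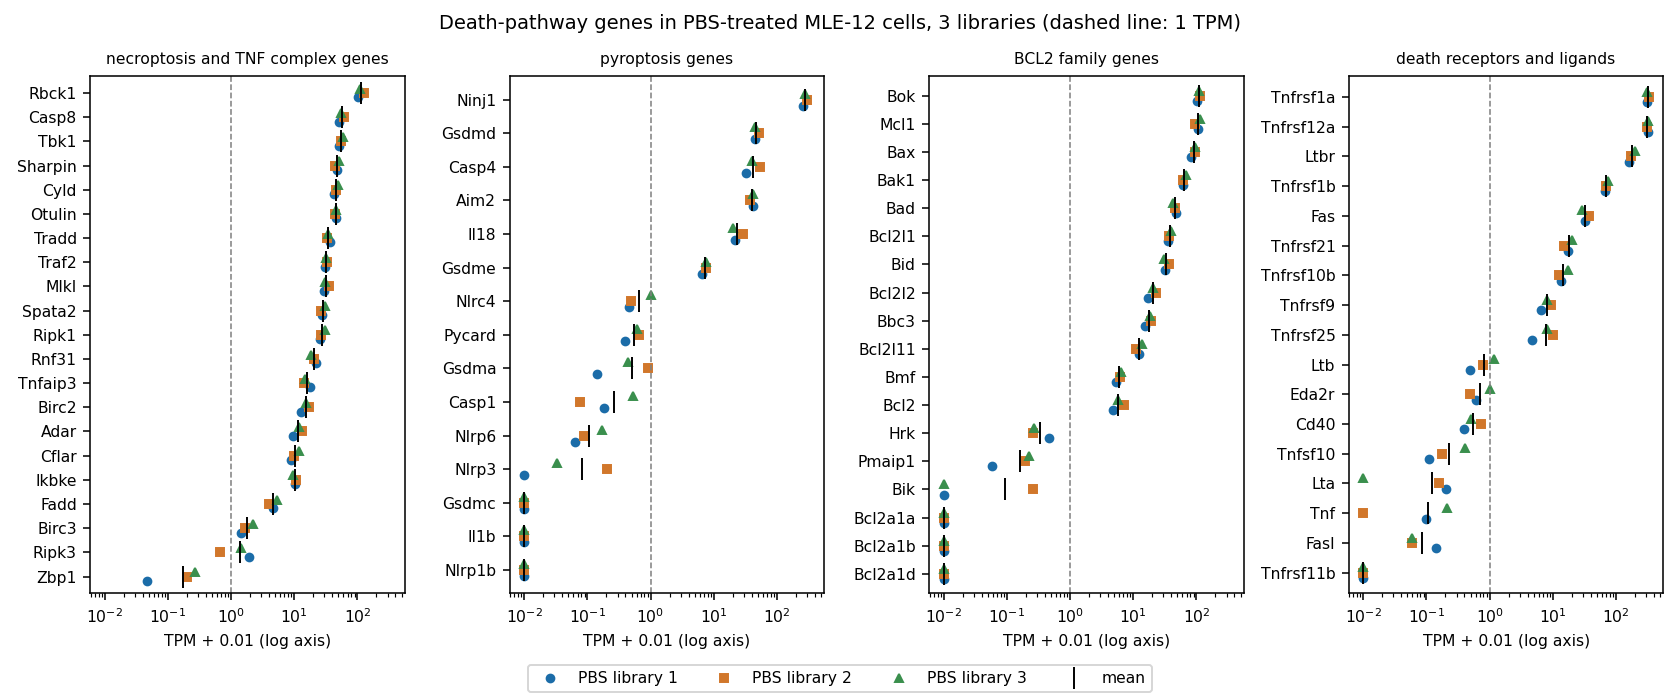
TPM plus 0.01 on a log axis for genes of necroptosis and TNF complexes, pyroptosis, the BCL2 family, and death receptors and ligands. Each symbol is a PBS library, the black tick is the mean and the dashed line marks 1 TPM. Mlkl lies at 32.0 TPM, Ripk3 straddles the line at 1.35 TPM and Zbp1 lies at 0.162 TPM.

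The p53 and retinoblastoma network, the target of large T antigen, was detected for 28 of 30 genes. Ccnd1, Cdk4 and Ccnd2 were at 732 ± 106, 527 ± 24.5 and 416 ± 51.0 TPM. Trp53 gave 182, 175 and 185 TPM and its targets Mdm2 and Cdkn1a were at 69.1 ± 8.03 and 62.7 ± 2.97 TPM. Rb1 was at 8.98 ± 1.20 TPM, and its relatives Rbl1 and Rbl2 at 41.5 ± 5.58 and 27.6 ± 1.06 TPM. All 25 replication and mitosis genes were detected and 20 were abundant, with Top2a, Cdk1, Mcm3 and Rrm1 at 503 ± 48.7, 464 ± 28.1, 366 ± 7.94 and 365 ± 21.2 TPM and a median of 227 TPM.

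Cdkn2a encodes 2 unrelated tumour suppressors from alternative first exons read in different frames of a shared second exon: p16Ink4a, an inhibitor of CDK4, and p19Arf, an inhibitor of MDM2. The gene gave 108, 114 and 125 TPM. The Arf transcript, Cdkn2a-202, gave 69.8, 78.7 and 85.9 TPM and the Ink4a transcript, Cdkn2a-201, gave 38.6, 35.5 and 39.3. The Arf value was the higher in every library, with 67.3% ± 2.53 of the gene's TPM. The coding parts of the first exons are printed because the alternative first exons tell the transcripts apart. They lie on the minus strand of GRCm38 at chr4:89281986-89282111 (Ink4a, 126 bases) and chr4:89294334-89294523 (Arf, 190 bases), and capitals mark the start codon.
Cdkn2a-201 first coding part: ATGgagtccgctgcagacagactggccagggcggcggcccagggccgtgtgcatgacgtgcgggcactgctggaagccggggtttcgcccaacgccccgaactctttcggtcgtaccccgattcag
Cdkn2a-202 first coding part: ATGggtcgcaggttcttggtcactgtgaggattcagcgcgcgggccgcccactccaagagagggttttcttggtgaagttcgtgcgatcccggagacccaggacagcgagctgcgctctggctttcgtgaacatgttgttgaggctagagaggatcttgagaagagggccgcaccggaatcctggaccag

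Related genes were compared within each library, where depth cancels, over 23 pairs. The steadiest ratio was that of Scd2 to Scd1, with a log2 ratio of 3.11 ± 0.03. The widest spread was that of Krt18 to Krt19, -11.82 ± 1.46, which rests on 15 Krt18 counts in all. Lama5 exceeded Lama3 by 1331 to 2315 times, with 28 Lama3 counts. Vegfa and Vegfb did not separate, at 0.991 to 1.14 times. Gpx4 exceeded Gpx1 by 1.37 to 1.79 times.

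**Figure D5:**
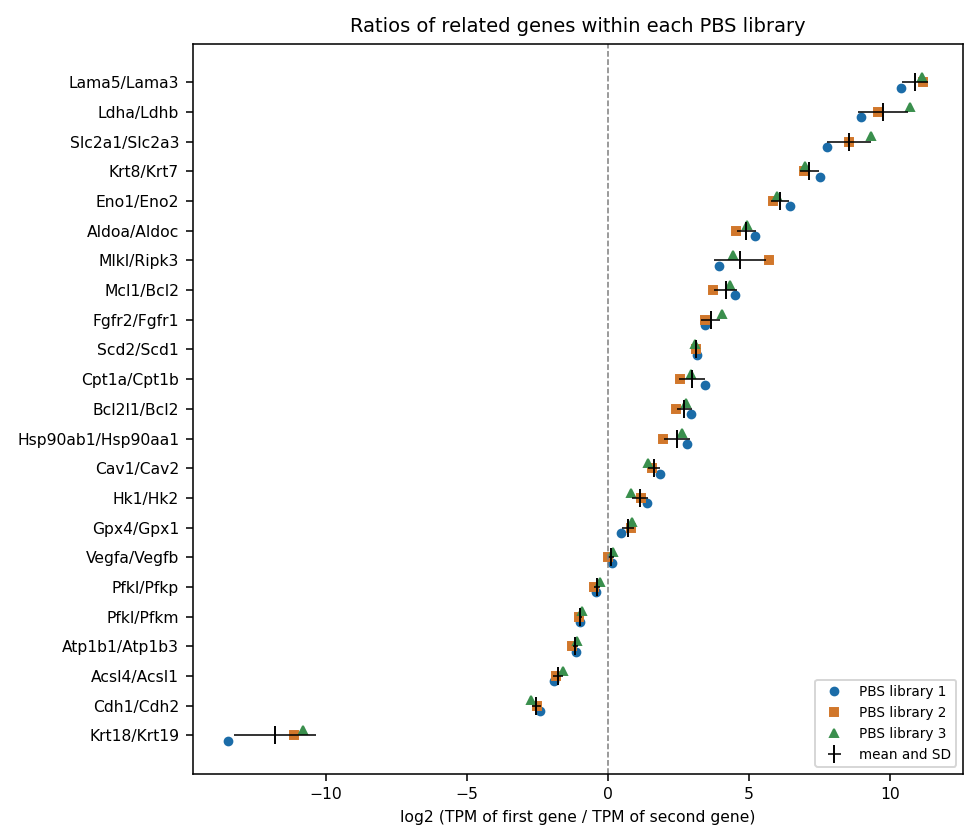
log2 ratio of the TPM of related genes in each PBS library (symbols), with the mean and SD over 3 libraries as a black tick and bar, and a dashed line at equal levels. In 22 of 23 pairs all 3 libraries lie on the same side of the line, the exception being Vegfa and Vegfb.

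Of the detected genes 10446 had several annotated transcripts, and in 8566 of them (82.0%) a single transcript held the majority of the mean TPM. Krt19 was split almost evenly: 52.4% ± 1.16 of its TPM went to Krt19-203, a non-coding processed transcript of 823 bases, and 47.6% ± 1.18 to the coding Krt19-201. Ager-201 held 66.3% ± 1.89 of Ager. Dcn-201 held 99.2% ± 0.206 of Dcn and Hsp90ab1-201 98.3% ± 0.118 of Hsp90ab1. Gclm was split between the coding transcripts Gclm-206 and Gclm-203, with 56.5% ± 1.77 and 35.5% ± 1.91. Msln was led by Msln-207 with 54.5% ± 8.13. Bcl2l1-201 held 89.2% ± 2.93 of Bcl2l1, and Hopx-202 92.6% ± 0.807 of Hopx.

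The biological CV estimated across 12810 genes was 10.7%, a value for libraries of 1 group that may be technical replicates. Over the 36 lists with at least 10 detected members, the mean deviation of a library from the mean of the 3 lay between -0.13 and 0.13 log2 CPM. Of the genes with at least 100 counts in every library, 8 had a CV over 50%. Egr1, an immediate early transcription factor, gave 63.9, 19.9 and 23.7 TPM, highest in library 1. Fos, a related early gene, gave 27.7, 17.4 and 17.5 TPM, and Junb 113, 92.1 and 100.4 TPM. Library 1 was the highest for all 3, chosen after their values were seen. Fam220a gave 11.2, 7.001 and 39.0 TPM, with library 3 the highest. All of its words (100%), and 99.7% of those of Sap25, occur in transcripts of other genes, so these values depend on how kallisto divided the reads. Gcc2, Sap25, Gm10800, Nsrp1, A630089N07Rik and Zfp948 were highest in library 2, which also had the largest share of TPM in retained-intron transcripts (6.52%, against 5.62% and 5.95%) and in pseudogenes (7.95%, against 6.63% and 6.06%). The pseudogene share differed mainly in unprocessed pseudogenes, at 2.09%, 3.31% and 1.48% in libraries 1 to 3. Processed pseudogenes held 3.78%, 3.91% and 3.87%. The unprocessed pseudogenes Gm28437, Gm29216 and Gm28661, named above with the mitochondrially encoded genes, were each highest in library 2. The part of these shares in the values of Gcc2, Sap25, Gm10800, Nsrp1, A630089N07Rik and Zfp948 was not tested. By the largest CV at a mean of at least 5 TPM, the first 10 genes were Gm10974, Hist1h2ai, Gm17304, Fam220a, Gm10801, Gm5741, Mrpl23, Gm49342, Gm10800 and Gm13199, from 110% down to 70.2%. Counts were few for some of them. Gm17304 had 3, 0 and 2 counts, which is not detected by the rule above. Gm10974, with the largest CV, had 0.912, 8.74 and 2 counts, and Hist1h2ai at most 25.1 in a library. Gm10800, in contrast, had 292 to 1003 counts and 42.0% shared words.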

How the data were processed

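RNA-seq of polyA RNA was deposited as a table of transcripts per library. Per the file headers, the authors' columns hold an estimated count, an effective length and a TPM value for each of 118489 transcripts, in kallisto's format. Per the submitters' processing notes, the tools included FastQC 0.12.1, fastp 0.20.1, kallisto 0.46.2 and DESeq2 1.40.2, with GRCm38 as the build. Which index was used, how reads were trimmed and whether strand was set is not given in these sources. TPM as deposited by the authors equals the estimated count over effective length, scaled to the same total in each library.

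Transcripts were matched by versioned identifier to GENCODE vM21 (GRCm38), 116816 of them (98.6%); the other 1673, with 0.650% to 0.664% of counts, were dropped. Both units were then added up by gene, for 36047 genes. Of 1177 listed symbols 1170 matched directly, 4 through RefSeq synonyms, and Xist, H19 and Meg3 were not analysed here. Of genes with the same symbol the one with the highest mean was taken. Promoters are from RefSeq GRCm38.p6. For each gene the share of 31-base words that occur in transcripts of other genes was counted.

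The members and lists were chosen with earlier results of these data known. Named genes were the 20 with the highest mean TPM, the top 4 and the members not detected in each list, the genes of the series title, the pair and isoform genes, and the 10 with the largest CV at a mean of at least 5 TPM; further list members, and the genes outside the lists, were chosen after their values were seen, and a few members and 1 pair are not reported here. Counts were rounded, filtered with filterByExpr and normalised by TMM, and the biological CV came from the common dispersion of edgeR 4.0.16 in R 4.3.3, with DESeq2 1.42.0 as an alternative, checked on simulated data. Log2 CPM used an offset of 0.5. No test between groups was made and no p-value is given, and deviations and SDs over 3 libraries are imprecise. Limits from counts reflect counting error alone, because without molecular identifiers a read is not an independent molecule.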

Additional observations from a re-analysis of the deposited data

How the results depend on the processing

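No paired analysis was possible because the values come from 1 group and from no test between groups. The counts of detected genes stayed within 1.5 times the reported ones, overall and in each of the 5 categories, under every alternative: 0.5 or 2 TPM as the line, the mean in place of every library, 1 CPM, coding transcripts only, rescaling without mitochondrially encoded genes, leaving out genes with at least 50% shared words, and leaving out each library. This band was a loose check. With 236 of 285 metabolic and 124 of 155 death-pathway genes detected, these counts could not rise by 1.5 times. Leaving out a library can only add genes under the rule of every library. The number of detected protein-coding genes ran from 10613 at 2 TPM to 12119 at 0.5 TPM, and from 11441 to 11592 with a library left out. The biological CV was 0.107 (10.7%). It was 0.0676 as the square root of the median gene-wise dispersion of DESeq2, and 0.0903 to 0.127 with a library left out, highest without library 3. The cause was not tested. Some single lists and genes moved by more than their spread under these settings. Depth limits the low genes: at 3 counts in a library, levels under 0.154 to 0.220 CPM cannot be told from absence. TPM are shares of a total, so a level depends on all other genes, and genes with shared words depend on how kallisto divided their reads.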

Other observations

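Some abundant messages belonged to none of the lists, and they are given here as values, chosen after they were seen. Sparc, a collagen-binding matricellular protein, was at 3067 ± 161 TPM, above Dcn, and Fstl1, a related secreted glycoprotein, at 643 ± 30.4 TPM. Pcolce and P3h4, which act on procollagen, were at 550.4 ± 21.8 and 549 ± 16.2 TPM, beside Bgn, Lox and Fbn1 at 0.512 ± 0.389, 0.0307 ± 0.0274 and 0.259 ± 0.0282 TPM. The annexins Anxa3 and Anxa1, which bind membrane phospholipids in the presence of calcium, were at 1563 ± 177 and 1108 ± 167 TPM. Vcam1, an adhesion molecule of activated endothelium and mesothelium, was at 633 ± 32.3 TPM in cells whose endothelial list was mostly under the detection line. Ano1, a calcium-activated chloride channel, was at 415 ± 30.0 TPM, whereas Cftr was at 0.150 ± 0.0415 TPM. Ffar4, a receptor for long-chain fatty acids, was at 286 ± 31.1 TPM, a higher mean than that of every member of the list of 41 G protein-coupled receptors, in cells with Cd36 near 0.

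Tubb4a, a tubulin best known from brain, gave 835, 778 and 849.7 TPM. Klf4 and Lmo4, both transcription regulators, were at 364 ± 32.0 and 536 ± 21.0 TPM, and Ezh2, a histone methyltransferase, at 279.7 ± 3.61 TPM. Ucp2, a mitochondrial carrier, was at 500.4 ± 27.7 TPM and Igfbp2 at 340.1 ± 5.34 TPM. S100a6 gave 1362, 745 and 889.7 TPM, with library 1 the highest and a CV of 32.3%, beside the median of 9.54% over detected genes with at least 100 counts in every library.

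Gm20594 was listed at 9231 ± 946 TPM, rank 3 among protein-coding genes, and 42 of its 419 words of 31 bases occur in the mitochondrial ribosomal RNA gene mt-Rnr2, which was not analysed here. Olfr1033, an olfactory receptor model, was listed at 2417 ± 182 TPM, while 22 of 1466 olfactory and vomeronasal receptor genes were detected. Of 183 protein-coding genes on the Y chromosome 1 was detected, Gm47283, listed at 1331 ± 185 TPM with 65.1% of its words shared with other genes. The 102 protein-coding genes whose symbols begin with Rpl or Rps held 9.71% of TPM. This rule by name is not limited to ribosomal proteins. The 10 highest genes held 7.97%, 9.23% and 7.56% in the 3 libraries.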
